A study of Mus musculus with 18 samples.

Results

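Interferon-stimulated genes are the genes that cells switch on when type I interferon binds its receptor, and 47 of them were followed here in RAW cells, a mouse macrophage-like line. Members were chosen by gene symbol or synonym, and each gene was read from its probe set with the highest mean intensity. Of the 47, 45 had a probe set listed with their symbol alone, among 18194 such genes on the array, and all 45 entered the tests. Isg15 and Ifi44 were not analysed here, since Isg15 shares its probe set with another gene and no probe set is listed for Ifi44.

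The cells received R848 with apilimod, R848 alone or R848 with API09, or were left in medium, with 1 array per treatment at 1, 3, 7 and 22 h and 2 more medium arrays at 0 h, which gives 18 arrays. R848 is an agonist of Toll-like receptor 7 in mouse cells, listed at 0.1 mM, which may be an error of unit. Apilimod inhibits the lipid kinase PIKfyve, and API09 is its inactive analog according to the series design; each was given at 1 uM. The cells were RAW cells in all groups, and nothing in the labels ties arrays to separate cultures, so a p-value weighs a difference against the scatter of these arrays, which may be technical. Within an hour, the R848 and R848+API09 arrays were used as a pair of controls (R848 controls below), and the lone R848+apilimod and medium arrays were assumed to vary like such pairs.

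In macrophages, Toll-like receptor signalling through the adaptor MyD88 leads to production of interferon beta. The secreted interferon acts back on the cells through the receptor chains IFNAR1 and IFNAR2 and the kinases JAK1 and TYK2, which activate STAT2. Together with IRF9, STAT2 is part of a complex that binds the interferon-stimulated response element (ISRE) in the promoters of its target genes. The products sense viral nucleic acid, block viral replication, mark or disrupt pathogen vacuoles, process antigen, and feed back on the pathway itself.

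The arrays were alike in brightness, with a median intensity of 17.5 to 19.2, but the R848+API09 array at 22 h stood apart. Its upper quartile was 87.0 against 100.9 to 118.6 on the other 17 arrays, and counts at 22 h are therefore also given with R848 alone as the control. Those fits take no spread from the control pair of 22 h, so their mostly smaller standard errors do not make them the firmer comparison. The 18S ribosomal RNA probes had a mean log2 signal of 10.55 on that array and 10.18 for R848+API09 at 7 h, where the other 16 arrays had 8.11 to 9.51; the part of this in the results was not tested. All 9 macrophage markers passed the filter of 18.05 on at least 3 arrays, Mrc1 dimly (11.1 to 28.3), with summed intensities of 38024 to 48879. Markers of T cells (4 of 4), B cells (1 of 4), fibroblasts (1 of 5) and epithelium (2 of 4) passed the same filter, and none of these lists had a value above 61.0. Of the plasmacytoid dendritic cell markers, Siglech and Ly6d were at most 30.9, Tcf4 was at 105 to 217, and the fourth, Bst2, is itself a member.

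Promoters are shown for 5 members that stand for the different time courses described below. Ifit1 had the largest difference between R848+apilimod and the controls at 3 h. Rsad2 did not pass the test as lower with apilimod at any hour, and Cmpk2 is its neighbour. Irgm1 and Igtp are GTPases of 1 family whose differences at 22 h had opposite signs. Each line gives the 250 bases before the gene's start in RefSeq (GRCm38.p6), 5′ to 3′ on the gene's strand, and capitals mark the ISRE core (GAAA, any 2 bases, GAAA) or its complement (TTTC, any 2 bases, TTTC).
Ifit1 (chr19:34640639-34640888, + strand): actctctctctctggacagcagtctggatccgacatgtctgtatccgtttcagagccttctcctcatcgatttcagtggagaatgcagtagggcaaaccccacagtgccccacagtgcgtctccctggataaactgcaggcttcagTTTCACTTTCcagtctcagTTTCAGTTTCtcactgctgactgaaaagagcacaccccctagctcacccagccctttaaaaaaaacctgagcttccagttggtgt
Rsad2 (chr12:26456453-26456702, - strand): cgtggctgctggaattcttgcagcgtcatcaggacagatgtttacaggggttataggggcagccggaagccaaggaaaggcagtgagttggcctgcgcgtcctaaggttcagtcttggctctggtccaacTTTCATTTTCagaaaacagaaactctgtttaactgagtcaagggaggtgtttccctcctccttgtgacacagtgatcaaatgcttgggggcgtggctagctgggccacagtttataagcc
Cmpk2 (chr12:26468965-26469214, + strand): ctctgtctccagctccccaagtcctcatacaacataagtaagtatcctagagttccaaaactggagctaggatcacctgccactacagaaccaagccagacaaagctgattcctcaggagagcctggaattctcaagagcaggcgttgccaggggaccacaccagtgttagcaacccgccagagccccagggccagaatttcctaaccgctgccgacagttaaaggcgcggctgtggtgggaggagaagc
Irgm1 (chr11:48871421-48871670, - strand): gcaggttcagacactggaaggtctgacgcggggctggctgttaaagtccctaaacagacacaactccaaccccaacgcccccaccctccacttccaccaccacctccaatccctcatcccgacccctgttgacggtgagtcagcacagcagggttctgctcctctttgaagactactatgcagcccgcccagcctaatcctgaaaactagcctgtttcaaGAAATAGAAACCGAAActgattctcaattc
Igtp (chr11:58199306-58199555, + strand): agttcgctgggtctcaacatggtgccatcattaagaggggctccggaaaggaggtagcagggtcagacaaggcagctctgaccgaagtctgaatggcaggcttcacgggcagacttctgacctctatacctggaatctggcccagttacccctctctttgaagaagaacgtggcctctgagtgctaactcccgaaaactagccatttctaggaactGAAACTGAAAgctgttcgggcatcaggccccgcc
The core begins 104 and 85 bases upstream of the start in Ifit1, 120 in Rsad2, 30 and 24 in Irgm1, where the matches overlap, and 34 in Igtp. Cmpk2 has no match in this window. Of the 34 members found in the promoter table, which spans 250 bases before to 50 after each start, 16 (47.1%) held the core on either strand, against 3.99% of 27025 genes. The interferon-gamma activated site (TTC, any 3 bases, GAA, the same letters on both strands) was in 26.5% of the 34 members and in 9.55% of all genes. The NF-kB motif (GGG, any 2 bases, TTTCC, on either strand) was in 0 of the 34 and in 1.90% of all genes. A match is a description of letters, not of binding.

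R848 raised most of these genes after 1 h, and most were highest at 7 h. At 1 h none of the 45 was called, that is, passed an adjusted p of 0.05 in limma (1 at an unadjusted p under 0.05), where 0.636% of all genes tested were higher and 0.0653% lower. At 3 h 37 were higher in the R848 controls than in medium and 0 were lower (6.23% of all genes higher, 9.19% lower), and at 7 h 42 were higher and 0 lower (11.3% and 18.5%). Mx1 and Gbp2 are among those higher at both hours. They passed the filter mostly through these control arrays, so their calls follow partly from how they entered the tests. With no filter, 36 were higher at 3 h and 42 at 7 h (4.18% and 7.6% of all genes). At 22 h 18 were higher and 11 lower (16.5% and 29.1%), so the members lower at 22 h were no larger a share than among all genes. The members' median log2 difference was 0.97 at 3 h, 1.12 at 7 h and 0.19 at 22 h, while the median over all genes was -0.03, -0.04 and -0.03. In bulk RNA, fewer cells that respond and less RNA per cell cannot be told apart. The mean of the controls peaked at 7 h for 41 members, at 3 h for Rsad2 and Mx2 and at 22 h for Irf7 and Psmb9.

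The split at 22 h depended on scaling. It was 25 higher and 9 lower after quantile normalization (26.5% and 24.3% of all genes), and 25 and 11 with R848 alone as the control (20.5% and 26.7%). The members lower at 22 h in the R848 controls than in medium included the GTPase gene Irgm1 (-1.10 ± 0.11), the nucleotide kinase gene Cmpk2 (-0.75 ± 0.09) and the oligoadenylate synthetase gene Oas2 (-0.72 ± 0.08). Those still far above medium were the nucleic acid sensor Zbp1 (2.68 ± 0.15), the DNA sensor Ifi204 (1.83 ± 0.16) and the transcription factor Irf7 (1.67 ± 0.11). Here and below, differences are on the scale of log2(intensity + 16), with standard errors. Differences between the R848 controls and another treatment set 2 arrays against 1, and those between other treatments within an hour set 1 against 1. The standard errors within hours take each gene's spread from the control pairs of all hours and the medium pair at 0 h, not from the compared arrays alone.

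The medium arrays were not flat. The 7 h medium array was the highest of the 6 for 35 of the 45 members and the 3 h array the lowest for 26. The highest over the lowest medium intensity was a median of 1.56-fold over the members, and it was 4.50-fold for Ifit1 and 3.52-fold for Usp18. At 7 h, 7 members were called higher in medium than at 0 h (0.139% of all genes, 17 in number): Cmpk2, Ifit1, Igtp, Parp14, Rtp4, Trim30a and Usp18. At 3 h Rtp4 and Usp18 were lower than at 0 h (0.457% of all genes). With the 0 h pair as the control for R848, 33 members were higher and 1 lower at 3 h (9.6% and 19.3% of all genes), 43 and 0 at 7 h (14.4% and 23%) and 21 and 12 at 22 h (26.6% and 33.9%), a control chosen after the values were seen. At 22 h 3 members were higher and 4 lower in medium than at 0 h (11.2% and 10.8%).

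**Figure D1:**
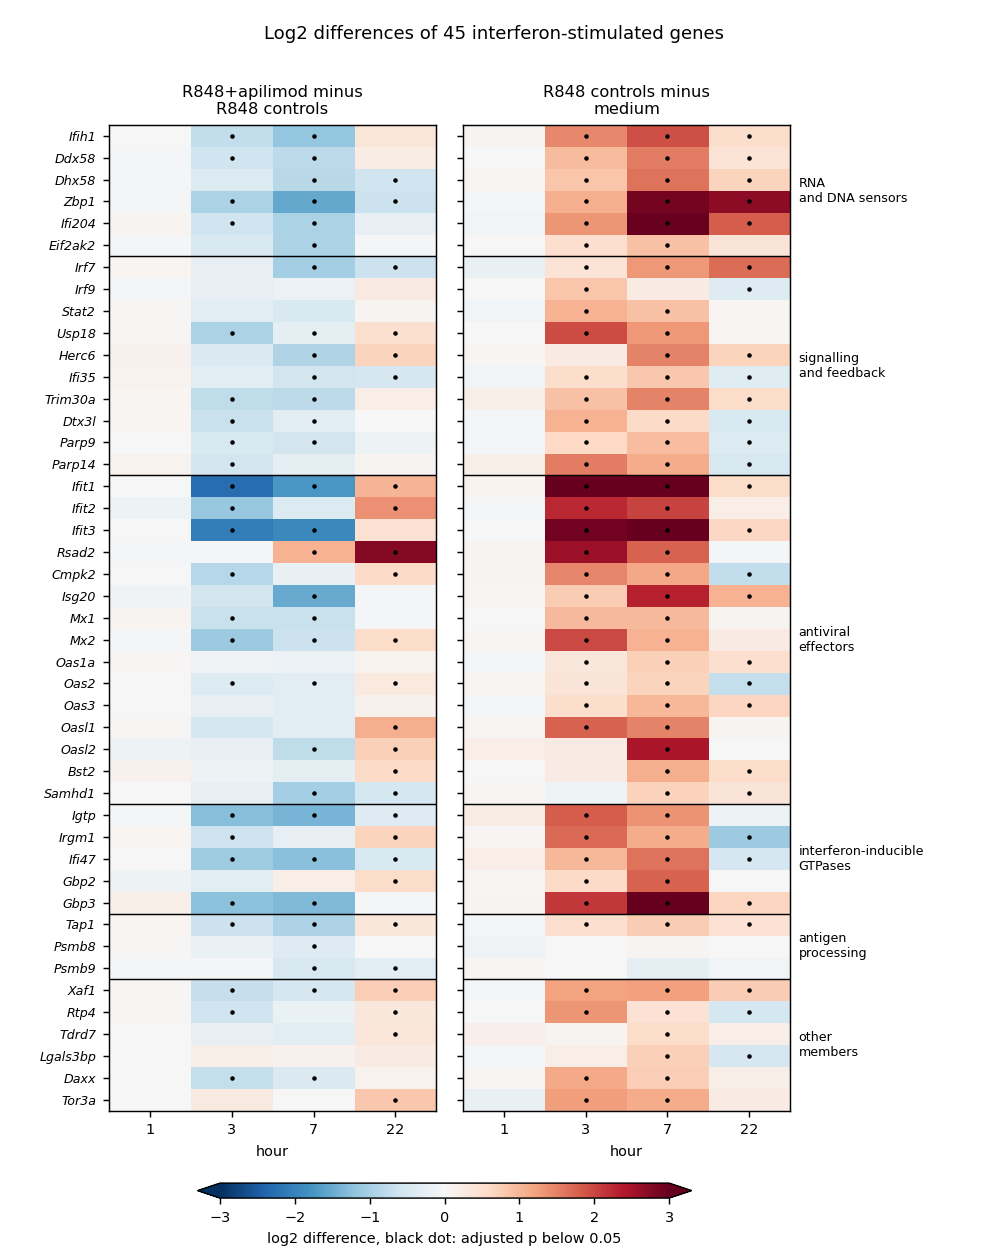
Log2 differences of the 45 members at 1, 3, 7 and 22 h, as R848+apilimod minus R848 controls (left) and R848 controls minus medium (right), with genes grouped by role. Black dots mark an adjusted p under 0.05 in limma and colours saturate at 3 in either direction; the left panel is mostly blue at 3 and 7 h and turns red for 31 of the 45 genes at 22 h.

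Apilimod lowered many of these genes at 3 and 7 h, and at 22 h more of them were higher than lower. The control arrays are those compared with medium above. At 1 h no member was called against the R848 controls (0 at an unadjusted p under 0.05, limma; 0% of all genes called, 165 of them at an unadjusted p under 0.05). At 3 h 24 of the 45 were lower and 0 higher, where 4.12% of all genes were lower and 5.07% higher. At 7 h 29 were lower and 1, Rsad2, was higher (9.81% lower and 9.81% higher), and without the R848+API09 array of that hour 23 were lower (7.22% of all genes). At 22 h 18 were higher and 8 lower (20.2% higher and 14.3% lower), the lower members being a share near that of all genes.

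The R848+apilimod array was below both control arrays for 42 members at 3 h, for 41 at 7 h and for 11 at 22 h, and above both for 2, 3 and 27. The members' median difference at 3, 7 and 22 h was -0.56, -0.50 and 0.22, against -0.03, -0.02 and 0.03 over all genes. Against R848 alone at 22 h, without the R848+API09 array, 17 members were higher and 8 lower (19% and 20.4% of all genes), with a median of 0.16. With that array out of the fit, 30 members were lower at 3 h and 1 higher (7.71% and 7.55% of all genes). The differences at 3 h were the same in both fits, and the added calls come from the smaller spread without the control pair of 22 h.

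The genes are described by role, beginning with the sensors of viral nucleic acid. All 6 rose with R848 at 3 and 7 h (6.23% and 11.3% of all genes). Apilimod lowered 4 of them at 3 h, all 6 at 7 h and 2 at 22 h (4.12%, 9.81% and 14.3% of all genes), and raised none at any hour. Zbp1, a sensor of left-handed nucleic acid that can start necroptosis, stood at 81.0, 83.0, 283 and 318 with R848+apilimod, 90.1, 177, 772 and 562 with R848 and 78.2, 174, 934 and 456 with R848+API09 at 1, 3, 7 and 22 h. Its medium values were 84.5 and 71.1 at 0 h and 87.8, 73.5, 103 and 65.6 at 1, 3, 7 and 22 h. With apilimod it was near medium at 3 h and remained below both controls at 7 and 22 h, with differences of -0.95 ± 0.15, -1.53 ± 0.15 and -0.64 ± 0.15 (limma, adjusted p = 0.00146, 2.0e-05 and 0.00657).

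The RNA helicases differed in their course. Ifih1 (MDA5) and Ddx58 (RIG-I) fell at 3 h by 0.74 ± 0.15 and 0.60 ± 0.09 and at 7 h by 1.16 ± 0.15 and 0.78 ± 0.09, and at 22 h they were at 0.36 ± 0.15 and 0.22 ± 0.09 without passing. Dhx58 (LGP2), their regulator, was at -0.42 ± 0.16 at 3 h without passing and lower at 7 h (-0.82 ± 0.16) and 22 h (-0.61 ± 0.16). Eif2ak2 encodes the RNA-activated kinase PKR, and Ifi204 belongs to the family of DNA sensors with IFI16. Both were lower at 7 h (-0.95 ± 0.15 and -0.94 ± 0.16), and of the 2 only Ifi204 passed at 3 h (-0.60 ± 0.16).

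Of the 10 signalling and feedback genes, apilimod lowered 5 at 3 h and 7 at 7 h (4.12% and 9.81% of all genes). At 22 h 2 of them were higher and 2 lower, shares near those of all genes (20.2% and 14.3%). Usp18 removes ISG15 from proteins and restrains the interferon receptor. Its intensity was 999, 1170.4, 4057 and 1878 with R848+apilimod, 977, 2212, 4915 and 1396 with R848 and 965, 2349, 5053 and 1285 with R848+API09 at 1, 3, 7 and 22 h. In medium it was 947 and 953 at 0 h and 966, 572, 2013 and 1292 at 1, 3, 7 and 22 h. The R848+apilimod array was about midway between medium and the controls at 3 h, close to the controls at 7 h and above both at 22 h. The differences were -0.95 ± 0.09, -0.30 ± 0.09 and 0.48 ± 0.09 (limma, adjusted p = 3.5e-05, 0.0392 and 0.00164).

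Herc6 encodes the mouse ligase that attaches ISG15 to proteins. It stood at 107, 63.3, 204 and 225 with R848+apilimod, 97.9, 88.8, 345 and 160.4 with R848 and 95.2, 92.2, 459 and 115 with R848+API09 at 1, 3, 7 and 22 h, and in medium at 90.0 and 91.3 at 0 h and 93.8, 73.1, 132 and 80.3 at 1, 3, 7 and 22 h. Its R848+apilimod value was below both controls at 3 and 7 h and above both at 22 h. The difference did not pass at 3 h (-0.43 ± 0.17, adjusted p = 0.209, limma) and passed at 7 h (-0.91 ± 0.17, adjusted p = 0.00284) and at 22 h (0.66 ± 0.17, adjusted p = 0.0122).

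Irf7, the factor that amplifies interferon production, did not follow this course. It was higher with R848 at every hour from 3 h on, at 0.40 ± 0.11, 1.30 ± 0.11 and 1.67 ± 0.11, and with apilimod it was lower at 7 h (-1.01 ± 0.11) and 22 h (-0.64 ± 0.11). Ifi35 was likewise lower at 7 and 22 h (-0.55 ± 0.11 and -0.51 ± 0.11). Its other 2 probe sets gave -0.69 and -0.78 at 7 h but only -0.21 and -0.03 at 22 h. Irf9 and Stat2, the DNA-binding and activating partners of the interferon complex, were not called with apilimod at any hour, with -0.26 ± 0.11 and -0.33 ± 0.15 at 3 h. Trim30a, Dtx3l and Parp9 were lower at 3 h (-0.75 ± 0.13, -0.67 ± 0.10 and -0.45 ± 0.08) and at 7 h; Dtx3l and Parp9 form a ubiquitin ligase complex. Parp14, an ADP-ribosyltransferase, was lower at 3 h alone (-0.56 ± 0.10).

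**Figure D2:**
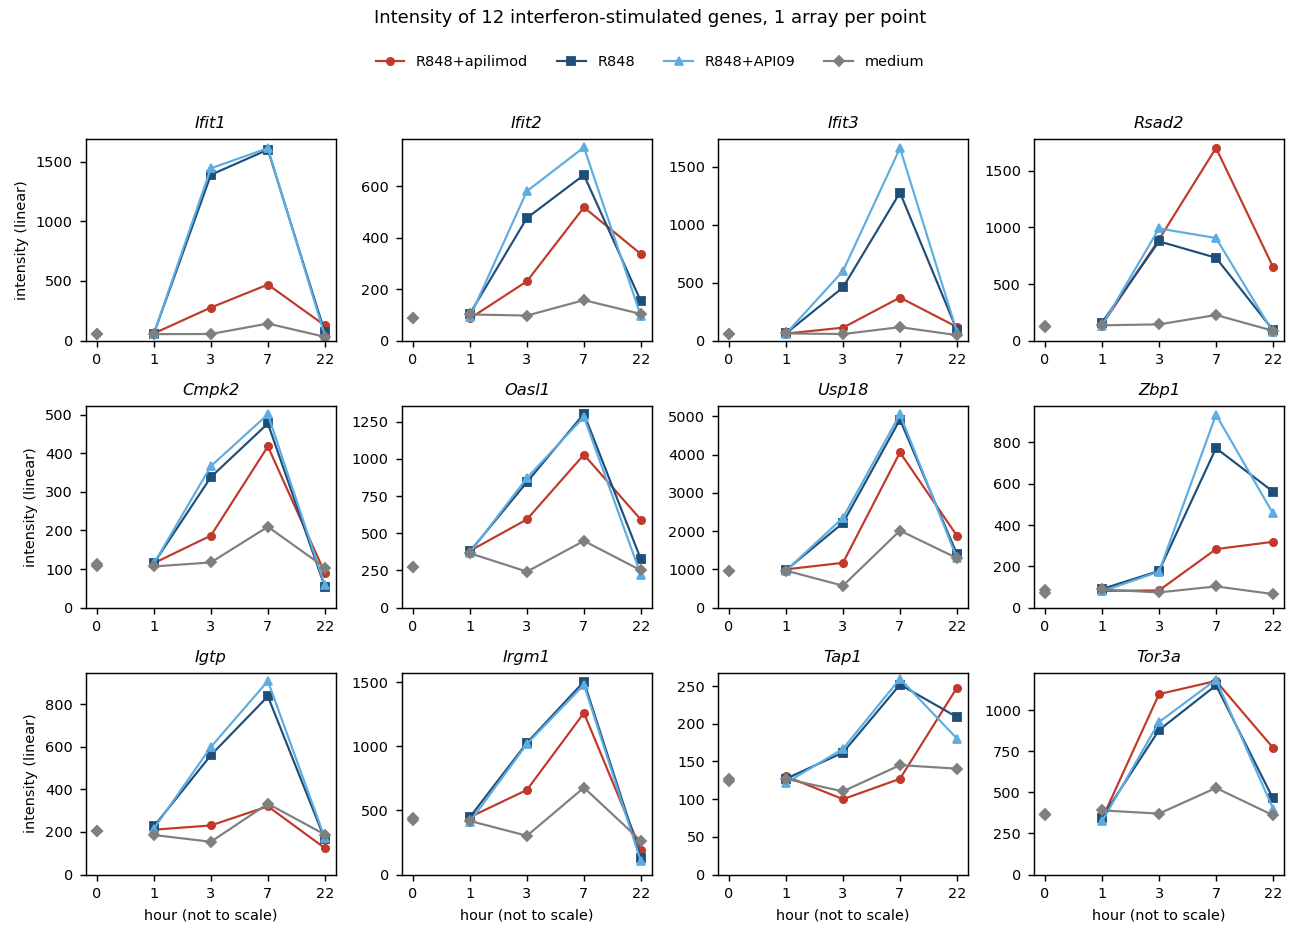
Intensity (linear, deposited values) of 12 members on every array against hour, with R848+apilimod in red, R848 in dark blue, R848+API09 in light blue and medium in grey, 1 array per point and 2 medium points at 0 h. The R848+apilimod points of Ifit1, Ifit3, Zbp1 and Igtp lie far below both control points at 7 h, and that of Rsad2 lies above them at 7 and 22 h.

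The 15 antiviral effectors held the extremes of the list. With apilimod 7 were lower at 3 h (4.12% of all genes), and 8 were lower and 1 higher at 7 h (9.81% each way). At 22 h 9 were higher and 1 lower (20.2% and 14.3%). The 1 higher at 7 h and the 1 lower at 22 h were no larger a share than among all genes. The Ifit proteins bind viral RNA and block its translation. Ifit1 had the largest difference of the 45 at 3 h. It stood at 60.5, 277, 469 and 127 with R848+apilimod, 59.4, 1389, 1599 and 68.9 with R848 and 59.5, 1444, 1612 and 42.4 with R848+API09 at 1, 3, 7 and 22 h. Without stimulus it was 55.6 and 53.6 at 0 h and 54.4, 55.6, 143 and 31.8 at 1, 3, 7 and 22 h. The R848+apilimod array lay between medium and the controls at 3 and 7 h and above both controls at 22 h, where R848 alone was above R848+API09. The differences were -2.29 ± 0.16, -1.74 ± 0.16 and 1.02 ± 0.16 (limma, adjusted p = 4.9e-06, 1.6e-05 and 0.000663). Against R848 alone the last was 0.75, 1 array against 1. That fit leaves out the control pair of 22 h, in which R848+API09 minus R848 was -0.54.

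Ifit3 stood at 60.9, 112, 372 and 118 with R848+apilimod, 62.7, 459, 1277 and 90.1 with R848 and 60.9, 600.2, 1661 and 74.7 with R848+API09 at 1, 3, 7 and 22 h, and in medium at 58.6 and 54.9 at 0 h and 62.3, 56.9, 116 and 47.5 at 1, 3, 7 and 22 h. It was below both controls at 3 and 7 h (-2.08 ± 0.17 and -1.93 ± 0.17, adjusted p = 1.4e-05 and 1.0e-05, limma). At 22 h it lay above both controls without passing (0.45 ± 0.17, adjusted p = 0.0689). Its promoter holds the ISRE core 156 and 122 bases upstream of the start.

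The intensity of Ifit2, a related gene, was 86.4, 231, 519 and 337 with R848+apilimod, 105, 477, 644 and 153 with R848 and 92.2, 582, 752 and 95.5 with R848+API09 at 1, 3, 7 and 22 h. In medium it was 89.8 and 87.1 at 0 h and 102, 97.5, 158 and 104 at 1, 3, 7 and 22 h. The R848+apilimod array was below both controls at 3 and 7 h and above both at 22 h, but the difference passed only at 3 h (-1.14 ± 0.20, adjusted p = 0.00369, limma) and 22 h (1.36 ± 0.20, adjusted p = 0.000424), not at 7 h (-0.41 ± 0.20, adjusted p = 0.217).

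Rsad2 encodes viperin, which makes a chain-terminating nucleotide, and was the one member called higher with apilimod at 7 h. It stood at 139, 893, 1701 and 651 with R848+apilimod, 159.7, 877, 732 and 93.9 with R848 and 133, 990.4, 906 and 74.4 with R848+API09 at 1, 3, 7 and 22 h. Without stimulus it was 126 and 118 at 0 h and 135, 143, 226 and 87.1 at 1, 3, 7 and 22 h. At 3 h the R848+apilimod array lay between the controls, at 7 h above both, and at 22 h, when the controls were back near medium, far above every other array of that hour. The difference was -0.06 ± 0.16 at 3 h (adjusted p = 0.914, limma), 1.05 ± 0.16 at 7 h (adjusted p = 0.000556) and 2.74 ± 0.16 at 22 h (adjusted p = 3.8e-07), and 2.60 ± 0.16 against R848 alone at 22 h. Its other 2 probe sets gave 0.83 and 0.70 at 7 h and 3.21 and 3.28 at 22 h.

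Cmpk2, a mitochondrial nucleotide kinase that supplies the substrate of viperin, starts 12.8 kb from Rsad2 on the opposite strand. It stood at 115, 187, 418 and 89.8 with R848+apilimod, 115, 338, 477 and 53.5 with R848 and 114, 367, 501 and 57.5 with R848+API09 at 1, 3, 7 and 22 h, and in medium at 112 and 107 at 0 h and 107, 117, 209.6 and 104 at 1, 3, 7 and 22 h. With apilimod it was below both controls at 3 h, close to them at 7 h and above them, though below medium, at 22 h. The differences were -0.86 ± 0.09, -0.22 ± 0.09 and 0.57 ± 0.09 (limma, adjusted p = 8.1e-05, 0.132 and 0.000663). At 3 h the 2 neighbours thus had -0.86 ± 0.09 and -0.06 ± 0.16. The other probe set of Cmpk2 gave -0.82 at 3 h and those of Rsad2 gave -0.21 and -0.38, a narrower contrast. The difference between the 2 genes was not tested.

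Mx2 encodes an antiviral dynamin-like GTPase. It stood at 40.9, 80.1, 67.8 and 72.6 with R848+apilimod, 44.1, 186, 112 and 49.2 with R848 and 40.4, 188, 120.1 and 40.3 with R848+API09 at 1, 3, 7 and 22 h, and in medium at 37.8 and 40.8 at 0 h and 41.2, 35.7, 48.1 and 35.5 at 1, 3, 7 and 22 h. Mx2 with apilimod was below both controls at 3 and 7 h and above both at 22 h (-1.08 ± 0.11, -0.65 ± 0.11 and 0.55 ± 0.11, adjusted p = 4.7e-05, 0.000909 and 0.00209, limma). Mx1, its relative, was above the filter on 4 arrays, the controls at 3 and 7 h, so its calls there (lower by 0.67 ± 0.17 and 0.66 ± 0.17 with apilimod) follow partly from how it entered the tests.

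The oligoadenylate synthetases make the messenger that activates RNase L, and their like protein Oasl1 restrains Irf7 translation in the mouse. Oas2 stood at 290.4, 227, 363 and 179 with R848+apilimod, 282, 305, 452 and 148 with R848 and 298, 313, 464 and 142 with R848+API09 at 1, 3, 7 and 22 h. In medium it was 286 and 289 at 0 h and 279, 231, 283 and 248 at 1, 3, 7 and 22 h. With apilimod Oas2 was at the medium level at 3 h, between medium and the controls at 7 h and above both controls, though below medium, at 22 h. The differences were -0.42 ± 0.08, -0.32 ± 0.08 and 0.28 ± 0.08 (limma, adjusted p = 0.00779, 0.0203 and 0.0245); the first had an adjusted p of 0.0568 without the R848+API09 array at 3 h and the last 0.0839 after quantile normalization.

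Oasl1 stood at 382, 593, 1029 and 591 with R848+apilimod, 378, 844, 1304 and 324 with R848 and 370.5, 872, 1283 and 219.5 with R848+API09 at 1, 3, 7 and 22 h, and in medium at 272 and 271 at 0 h and 366, 242, 449 and 251 at 1, 3, 7 and 22 h. It was below both controls at 3 and 7 h without passing (-0.52 ± 0.16 and -0.33 ± 0.16, adjusted p = 0.0794 and 0.22, limma) and above both at 22 h (1.10 ± 0.16, adjusted p = 0.000364). Oasl2 was lower at 7 h (-0.75 ± 0.15) and higher at 22 h (0.72 ± 0.15). Oas1a and Oas3 were not called with apilimod at any hour. Of the other effectors, the exonuclease gene Isg20 was lower at 7 h (-1.51 ± 0.18), Bst2 (tetherin) was higher at 22 h (0.57 ± 0.13), and the nucleotide hydrolase gene Samhd1 was lower at 7 and 22 h (-1.01 ± 0.13 and -0.52 ± 0.13).

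The interferon-inducible GTPases act on the membranes of pathogen vacuoles. All 5 rose with R848 at 3 and 7 h (6.23% and 11.3% of all genes). Gbp2 is 1 of them and was above the filter on 6 arrays, among them the R848 controls at 3 and 7 h. Its calls with R848 at these hours therefore follow partly from how it entered the tests. With apilimod 4 were lower at 3 h and 3 at 7 h (4.12% and 9.81% of all genes). At 22 h 2 were higher and 2 lower (20.2% and 14.3%). Igtp stood at 210.4, 230.3, 319.9 and 124 with R848+apilimod, 226, 560.1, 836 and 165 with R848 and 216, 598, 908 and 171 with R848+API09 at 1, 3, 7 and 22 h. Without stimulus it was 203 and 202 at 0 h and 185, 154, 332 and 188 at 1, 3, 7 and 22 h. Igtp with apilimod was below both controls from 3 h on and below the medium array of the same hour at 7 and 22 h. The differences were -1.27 ± 0.09, -1.40 ± 0.09 and -0.40 ± 0.09 (limma, adjusted p = 4.9e-06, 8.4e-07 and 0.00617).

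Irgm1, a regulator of Igtp and its relatives, stood at 448, 660.5, 1261 and 190.0 with R848+apilimod, 448, 1028, 1505 and 128 with R848 and 412, 1019, 1481 and 102 with R848+API09 at 1, 3, 7 and 22 h. In medium it was 444 and 427 at 0 h and 418, 302, 678 and 263 at 1, 3, 7 and 22 h. It was below both controls at 3 h, near them at 7 h and above both, though below medium, at 22 h. The differences were -0.62 ± 0.11, -0.24 ± 0.11 and 0.66 ± 0.11 (limma, adjusted p = 0.00437, 0.195 and 0.00106). Ifi47 was lower at all 3 hours, like Igtp (-1.08 ± 0.10, -1.26 ± 0.10 and -0.46 ± 0.10). The guanylate-binding protein genes Gbp3 and Gbp2 differed, Gbp3 being lower at 3 and 7 h (-1.24 ± 0.12 and -1.32 ± 0.12) and Gbp2, above the filter on 6 arrays, 4 of them R848 controls, being higher at 22 h (0.55 ± 0.13) at intensities close to the filter.

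Tap1, which pumps peptides into the endoplasmic reticulum for antigen presentation, was the only one of the 3 antigen processing genes that rose with R848 at 3 h. It stood at 130.3, 99.9, 127 and 248 with R848+apilimod, 127, 162, 252 and 209 with R848 and 122, 167, 259.7 and 180.3 with R848+API09 at 1, 3, 7 and 22 h, and in medium at 124 and 127 at 0 h and 127, 110.3, 145 and 140.4 at 1, 3, 7 and 22 h. With apilimod it was below both controls and below medium at 3 and 7 h and above every other array at 22 h. The differences were -0.64 ± 0.10, -0.93 ± 0.10 and 0.33 ± 0.10 (limma, adjusted p = 0.00124, 3.8e-05 and 0.0232); the last was 0.19 with an adjusted p of 0.0929 when probe sets were averaged.

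Psmb9, an immunoproteasome subunit, starts 226 bases from Tap1 on the opposite strand. It was not called with R848 at any hour (-0.26 ± 0.10 and -0.08 ± 0.10 at 7 and 22 h), and with apilimod it was lower at 7 and 22 h (-0.49 ± 0.10 and -0.32 ± 0.10). Psmb8, a further subunit, was lower with apilimod at 7 h (-0.39 ± 0.11).

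Apilimod lowered 3 of the 6 remaining genes at 3 h (4.12% of all genes) and 2 of them at 7 h (9.81%). At 22 h 4 of these were higher and 0 lower (20.2% and 14.3% of all genes). Xaf1, which binds the apoptosis inhibitor XIAP, stood at 544, 615, 1402 and 1469 with R848+apilimod, 539, 936, 1858 and 952 with R848 and 519, 1062, 2141 and 799.8 with R848+API09 at 1, 3, 7 and 22 h. Without stimulus it was 555 and 520.3 at 0 h and 539, 425, 841 and 509.5 at 1, 3, 7 and 22 h. It was below both controls at 3 and 7 h and above both at 22 h (-0.68 ± 0.13, -0.50 ± 0.13 and 0.74 ± 0.13, adjusted p = 0.00493, 0.0167 and 0.00107, limma).

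Rtp4, an interferon-induced receptor transporter protein, stood at 1513, 1809, 2785 and 1173 with R848+apilimod, 1497, 2713, 3162 and 977 with R848 and 1438, 2764, 3227 and 863 with R848+API09 at 1, 3, 7 and 22 h, and in medium at 1604 and 1653 at 0 h and 1478, 1089.8, 2363 and 1321 at 1, 3, 7 and 22 h. It was below both controls at 3 and 7 h and above both, though below medium, at 22 h. The difference passed at 3 h (-0.59 ± 0.09, adjusted p = 0.00163, limma) and 22 h (0.35 ± 0.09, adjusted p = 0.015) and not at 7 h (-0.20 ± 0.09, adjusted p = 0.204).

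Daxx, a histone chaperone, stood at 331, 436, 538 and 381 with R848+apilimod, 336, 692, 701 and 394 with R848 and 322, 752, 775 and 314 with R848+API09 at 1, 3, 7 and 22 h, and in medium at 307 and 336 at 0 h and 323, 317, 439 and 311 at 1, 3, 7 and 22 h. It was below both controls at 3 and 7 h (-0.71 ± 0.13 and -0.44 ± 0.13, adjusted p = 0.00419 and 0.0332, limma) and between them at 22 h (0.11 ± 0.13).

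Tor3a, a torsin of the endoplasmic reticulum, was not lowered by apilimod. It stood at 338, 1099, 1179 and 772 with R848+apilimod, 347, 879.6, 1152 and 463 with R848 and 324, 929, 1186 and 402 with R848+API09 at 1, 3, 7 and 22 h, and in medium at 368 and 360.2 at 0 h and 391, 371, 527 and 361 at 1, 3, 7 and 22 h. The R848+apilimod array was above both controls at 3 h without passing (0.28 ± 0.10, adjusted p = 0.149, limma), between them at 7 h (0.01 ± 0.10) and above both at 22 h (0.82 ± 0.10, adjusted p = 0.00011). Lgals3bp was not called with apilimod at any hour (0.18 ± 0.10, 0.13 ± 0.10 and 0.25 ± 0.10 at 3, 7 and 22 h), and Tdrd7 was higher at 22 h (0.36 ± 0.13).

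The turn between 3 and 22 h was tested directly, as the difference at 22 h minus the difference at 3 h. It was positive and called for 29 of the 45 members and negative and called for 0 (13.3% and 9.46% of all genes), with a median of 0.70 against 0.05 over all genes. It was largest for Ifit1 at 3.31 ± 0.23, followed by Rsad2 at 2.80 ± 0.22, Ifit3 at 2.53 ± 0.24 and Ifit2 at 2.50 ± 0.29 (limma, adjusted p = 6.1e-06, 1.2e-05, 4.7e-05 and 0.000155). Without the R848+API09 array at 22 h, 30 were called positive and 3, Dhx58, Samhd1 and Psmb9, negative (15.1% and 14.8% of all genes).

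Called lower at 3 h and higher at 22 h were 10 members: Ifit1, Ifit2, Cmpk2, Mx2, Oas2, Usp18, Irgm1, Tap1, Xaf1 and Rtp4, where 0.579% of all genes were. Against R848 alone at 22 h, the differences of all 10 were also positive. Oasl1 joined the 10 in that fit through its call at 3 h, since it was higher at 22 h in either fit. Its 3 h difference was the same in both, and only its standard error was smaller without the control pair of 22 h. The effectors, 15 of the 45 members, supplied 5 of the 10. None of the 6 sensors was among them, though Ddx58 or Ifih1 or both joined under 4 alternatives. A difference between roles was not tested. Ifi47, Igtp and Zbp1 were lower at both hours (1.62% of all genes). A further 11 were lower at 3 h and not called at 22 h (1.92%). The 8 members not called at 3 h and higher at 22 h were a share near that of all genes (16.7%). Dhx58, Irf7, Ifi35, Samhd1 and Psmb9 were not called at 3 h and lower at 22 h, again a share near that of all genes (12.3%).

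**Figure D3:**
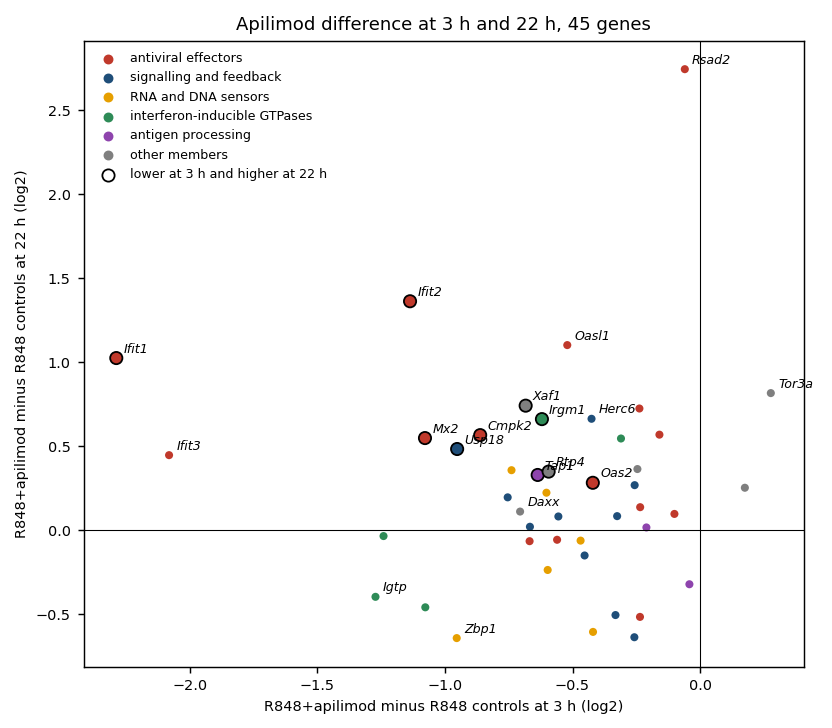
Each point is 1 of the 45 members, with the log2 difference of R848+apilimod minus R848 controls at 3 h on the horizontal axis and at 22 h on the vertical axis, coloured by role. The 10 outlined genes, called lower at 3 h and higher at 22 h, lie in the upper left, Rsad2 stands alone at the top near 0 at 3 h, and Zbp1 and Igtp lie in the lower left.

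By course, the ISRE core was in 2 of the 6 genes with a promoter in the table that were lower at 3 h and higher at 22 h (Ifit1 and Irgm1), in 6 of the 9 that were lower at 3 h and not higher at 22 h, and in 8 of the 19 that were not lower at 3 h, Rsad2 among them. These counts were not tested.

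The levels on single arrays fell off unequally after 7 h. From 7 to 22 h the median change of the 45 genes was -0.60 with R848+apilimod, -1.28 with R848, -1.58 with R848+API09 and -0.33 in medium. The level with apilimod was highest at 22 h for 9 members, against 2 in the controls. The change with R848+API09 rests on the 22 h array that stood apart. The change in medium starts from the 7 h array, the highest medium array for 35 of the 45 members. Changes over all genes are not given here. These are single arrays, and the changes were not tested.

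Compared with medium, many genes were still induced in the presence of apilimod. At 1 h none of the 45 was called (1 at an unadjusted p under 0.05, limma; 0.547% of all genes higher and 0.0571% lower). At 3 h 22 of the 45 were higher with R848+apilimod than in medium and 0 lower (6.91% and 9.64% of all genes), at 7 h 29 were higher and 1, Psmb9, lower (12.3% and 19.1%), and at 22 h 25 were higher and 9 lower (21.5% and 25.8%). The R848 controls had 37, 42 and 18 higher at these hours, as given above, and both comparisons share the medium arrays. Rsad2 was higher than in medium by 2.51 ± 0.18, 2.82 ± 0.18 and 2.69 ± 0.18 at 3, 7 and 22 h, and Tor3a by 1.53 ± 0.12, 1.14 ± 0.12 and 1.06 ± 0.12. Tap1 and Ifi47 were at -0.12 ± 0.11 and -0.07 ± 0.12 at 3 h, neither passing. With the 0 h medium pair as the control, 16 were higher and 5 lower at 3 h (9.12% and 18.9% of all genes), 38 and 1 at 7 h (14.2% and 21.5%) and 26 and 11 at 22 h (28.7% and 29.8%).

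The compounds were also set against each other at their common dose. The difference R848+API09 minus R848 lay within 0.5 of 0 for all 45 members at 1, 3 and 7 h, with medians of -0.06, 0.05 and 0.09, and for 42 at 22 h, with a median of -0.22 where all genes had -0.12. The 3 exceptions at 22 h were Ifit2 at -0.60, Ifit1 at -0.54 and Oasl1 at -0.53. R848+apilimod minus R848 had medians of 0.00, -0.49, -0.42 and 0.16 at 1, 3, 7 and 22 h. These medians set 1 array against 1 and are given without a test.

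R848+apilimod was tested directly against R848+API09, with the spread taken from the control pairs of the other hours. At 1 h no member was called (0 at an unadjusted p under 0.05, limma; 0% of all genes). At 3 h 22 were lower and 0 higher (2.59% and 3.78% of all genes), at 7 h 26 were lower and Rsad2 was higher (7.42% and 8.27%), and at 22 h 24 were higher and 7 lower (31% and 16.8%). The counts at 22 h rest on the R848+API09 array that stood apart. Ifit1 was at -2.32 ± 0.20, -1.75 ± 0.20 and 1.29 ± 0.07 at 3, 7 and 22 h. Its last standard error is the smallest because the spread there leaves out the pair of 22 h, the one that differed most for Ifit1. Averaged over 1 to 22 h, no member and no gene passed for any pair of the 3 stimulated treatments; at an unadjusted p under 0.05 there were 0 members for R848+API09 against R848, 4 for R848+apilimod against R848+API09 and 6 for R848+apilimod against R848 (0% of all genes called in each, limma). Over hours the members' median was -0.03 (R848+API09 against R848), -0.19 (R848+apilimod against R848+API09) and -0.24 (R848+apilimod against R848), with a median standard error of 0.24. For R848+apilimod against the R848 controls within hours it was 0.12. The fit over hours gives each pair 1 difference, so opposite differences at 3 and 22 h cancel. Changes of a difference between hours count as spread in it, so the lack of calls cannot show that a compound had no effect. The 95% interval of R848+API09 minus R848 over hours was -1.52 to 1.28 for Ifit1 and -1.11 to 1.09 for Rsad2.

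**Figure D4:**
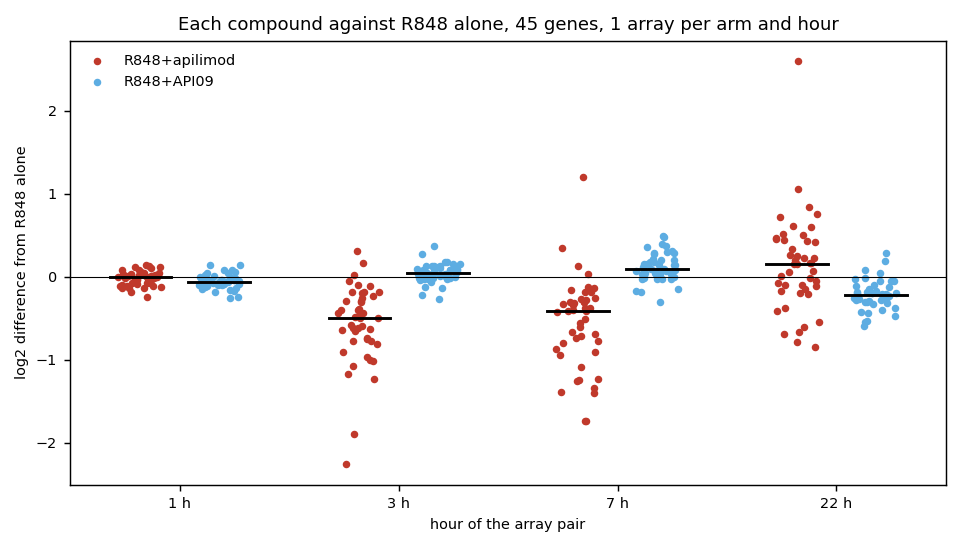
Log2 difference from R848 alone on the array of the same hour, for R848+apilimod (red, left of each pair) and R848+API09 (light blue), 45 members per column, with black bars at the medians. The R848+API09 points stay within 0.5 of 0 until 7 h, while the R848+apilimod points reach from -2.26 to 0.32 at 3 h.

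The genes of the interferon pathway upstream of these members were read from a list of pathway genes, of which 16 were tested; Ifna4 did not pass the intensity filter. With R848, 3 of the 16 were higher and 0 lower at 3 h (6.23% and 9.19% of all genes). At 7 h 4 were higher and 3 lower (11.3% and 18.5%), the lower ones a share near that of all genes. At 22 h 3 were higher and 6 lower (16.5% and 29.1%), the higher ones a share near that of all genes. Apilimod raised 1 and lowered 3 at 3 h (5.07% and 4.12%), the raised one a share near that of all genes. It raised 1 and lowered 6 at 7 h (9.81% of all genes each way), and raised 5 and lowered 3 at 22 h (20.2% and 14.3%), the last a share near that of all genes. Ifnb1, which encodes interferon beta, was dim throughout. It was above the filter on 6 arrays, 4 of them the R848 controls at 3 and 7 h, so its calls there follow partly from how it entered the tests. It stood at 16.2, 18.5, 14.7 and 15.4 with R848+apilimod, 17.2, 40.7, 20.7 and 17.1 with R848 and 16.7, 34.9, 30.6 and 17.1 with R848+API09 at 1, 3, 7 and 22 h. In medium it was 13.5 and 13.3 at 0 h and 19.2, 11.5, 15.1 and 17.3 at 1, 3, 7 and 22 h. It was highest on the control arrays at 3 h, and the R848+apilimod array lay below both controls at 3 and 7 h and near them at 22 h. The R848 controls minus medium were 0.97 ± 0.13 at 3 h and 0.41 ± 0.13 at 7 h, and R848+apilimod minus the controls was -0.64 ± 0.13 and -0.43 ± 0.13 at these hours and -0.07 ± 0.13 at 22 h.

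The receptor chain Ifnar1 was not called with apilimod, and Ifnar2 was higher at 22 h (0.25 ± 0.08), and the kinase gene Jak1 at 7 h (0.49 ± 0.12) and 22 h (0.36 ± 0.12). Irf5, a transcription factor activated by Toll-like receptors, had a deficit with apilimod at 3 h (-0.76 ± 0.10) and 7 h (-0.89 ± 0.10) and an excess over the controls at 22 h (0.44 ± 0.10), all called. At 22 h R848 itself had lowered Irf5 by 1.41 ± 0.10 against medium. With R848+apilimod it then stood at 197, below the 400 of medium. Myd88 was lower at 7 and 22 h (-0.60 ± 0.11 and -0.53 ± 0.11). Tlr7, the receptor of R848, was higher at 3 h (0.50 ± 0.12) and 22 h (0.54 ± 0.12), where R848 itself had lowered it by 2.02 ± 0.12 against medium. Ptpn6, a phosphatase that restrains cytokine receptor signalling, was lower from 3 h on (-0.54 ± 0.11, -1.44 ± 0.11 and -1.11 ± 0.11). Any part of these genes in the course of the members was not tested.

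Probe sets of 1 gene largely moved together. Of 19 members with more than 1 probe set above the filter, all sets had the same sign of the apilimod difference for 17 at 3 h, 16 at 7 h and 16 at 22 h. Oas1a, Ifi204, Trim30a and the Gbp genes have close relatives in the mouse, whose transcripts their probe sets may also detect.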

How the data were processed

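RNA from RAW cells was amplified with NuGEN Ovation V2, biotin-labelled and hybridised, 1 colour per chip, to 18 Affymetrix mouse arrays; this follows the labels' protocols. The deposited values are linear intensities of 45101 probe sets; how they were corrected, summarised and normalized by the authors is not given in the sources used here. The tool limma is named without a role in the submitters' processing notes. The number of arrays limits the precision.

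Symbols were updated through Entrez IDs to RefSeq (GRCm38.p6), and 34958 probe sets with 1 symbol were used. The 12257 genes tested exceeded an intensity of 18.05 (the median over every probe set and array) on 3 or more arrays, and the brightest probe set on average stood for the gene. Values were tested as log2(intensity + 16), a scale that understates changes of dim genes, with limma 3.58.1 in R 4.3.3, two-sided, and Benjamini-Hochberg adjustment over all 12257 genes at 0.05. Within hours, R848 and R848+API09 shared 1 mean per hour and the 2 medium arrays at 0 h another. The comparison of R848+apilimod with R848+API09 left out the R848 array of that hour, and comparisons over 1 to 22 h had the hour as a block. The fit was tested on simulated data.

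The members and lists were chosen with earlier results of these data known. Values on every array are given for the genes with the 3 largest differences between R848+apilimod and R848 controls at 3, 7 or 22 h, the largest of each role at 3 or 22 h, and those called in opposite directions at 3 and 22 h; other members are named to account for each role. Alternatives covered scaling, filters, pseudocounts (1 and 64), probe sets, variances and leaving out arrays.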

Additional observations from a re-analysis of the deposited data

Results flagged for a closer look

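The difference between R848+apilimod and R848 controls changed between 3 and 22 h, by a test of the change itself (limma, adjusted p under 0.05, log2, 22 h minus 3 h), for 29 of the 45 genes. The 4 largest changes were those of Ifit1 (3.31), Rsad2 (2.80), Ifit3 (2.53) and Ifit2 (2.50). Changes between 1 and 2 were found for Mx2 (1.63), Oasl1 (1.62), Usp18 (1.44), Cmpk2 (1.43), Xaf1 (1.42), Irgm1 (1.28), Gbp3 (1.21), Ifih1 (1.10) and Herc6 (1.09).

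Smaller changes were found for Tap1 (0.96), Oasl2 (0.96), Trim30a (0.95), Rtp4 (0.94), Igtp (0.88), Gbp2 (0.86), Ddx58 (0.82), Daxx (0.82), Bst2 (0.73), Oas2 (0.70), Dtx3l (0.69), Parp14 (0.64), Ifi47 (0.62), Tdrd7 (0.61), Tor3a (0.54) and Irf9 (0.52). All 29 changes were positive. Igtp and Ifi47 were lower with apilimod at both hours, so for them the change is a smaller deficit at 22 h. The values at each hour are 1 R848+apilimod array against 2 control arrays.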

How the results depend on the processing

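Over 19 alternatives, the number of members lower with apilimod was 22 to 30 at 3 h and 23 to 39 at 7 h, and the number higher at 22 h was 17 to 24. Between 10 and 15 members were lower at 3 h and higher at 22 h, and 8 of the 10 were so in every setting, all but Oas2 and Tap1. Of the named genes, 4 calls of the difference or its change failed in 1 setting each: Tap1 at 22 h (0.19, adjusted p 0.0929, mean over probe sets), the change of Tor3a (0.50, adjusted p 0.0681, without the R848+API09 array at 3 h) and Oas2, at 22 h (0.21, adjusted p 0.0839, quantile normalization) and at 3 h (-0.40, adjusted p 0.0568, without that array). No direction reversed. Small counts moved, and the cause was not tested. Members lower with R848 at 7 h were 1 in place of 0 with quantile normalization, with a pseudocount of 64, and with quantile normalization and no R848+API09 array at 22 h together, an alternative chosen after seeing the data. Members higher with apilimod at 3 h were 1 in place of 0 with quantile normalization, alone and together with that omission. Members lower with R848+apilimod than in medium at 7 h were 3 in place of 1 in both of these and 2 with trended, robust variances. Members higher in medium at 22 h than at 0 h were 5 in place of 3 in all 3. The combined setting also gave 2 members with a lower change and 1 lower with R848+apilimod than in medium at 3 h. With the 0 h medium pair as the control, also chosen after seeing the data, 1 member was lower with R848 at 3 h and 5 with R848+apilimod. Leaving out each control array in turn gave 0 to 1 members lower with R848 at 7 h, 0 to 1 higher with apilimod at 3 h, 0 to 3 with a lower change, 0 to 1 and 1 to 3 lower with R848+apilimod than in medium at 3 and 7 h, and 2 to 5 higher and 1 to 6 lower in medium at 22 h than at 0 h. No paired analysis was possible because, within an hour, each treatment has 1 array and the 2 medium arrays at 0 h share no number with other groups; the comparisons over 1 to 22 h already carry the hour as a block. With 1 R848+apilimod array per hour, its own spread was not measured, and dim genes such as Mx1, Gbp2 and Ifnb1 lie near the filter.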
